A study of Mus musculus with 15 samples.

Results

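The cluster of miR-132 and miR-212 was followed through small RNA sequencing of mouse midbrain. Its members were taken by name as every arm of the miR-132 and miR-212 hairpins in the table of normalized counts, which gave mmu-miR-132-3p, mmu-miR-132-5p, mmu-miR-212-3p and mmu-miR-212-5p, 4 of the 396 miRNAs listed. All 15 libraries were used. The WT group held 8 samples of wild-type C57BL/6 midbrain (replicates 1 to 8), and the A30P group held 7 samples labelled A30P alpha-synuclein +/+ (replicates 1, 2, 3, 4, 6, 7 and 8), all from mice aged 6 months. A30P names a substitution in alpha-synuclein, a protein of presynaptic terminals, that causes inherited Parkinson's disease. The labels name neither the promoter behind the A30P form nor the sex of the mice, and do not tie each sample to a separate animal, so the spread behind the p-values may be technical.

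The hairpins of miR-132 and miR-212 are cut from a single primary transcript, whose promoter responds in rodent neurons to synaptic activity and neurotrophins through the transcription factor CREB. Each hairpin gives a 5p and a 3p arm, and the arm that Argonaute loads is kept while the other is mostly degraded. miR-132-3p is the best studied member and promotes dendrite growth in rodent neurons. All 4 arms start from the same transcript, so their levels and ratios can be compared library by library.

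The mature sequences are shown because they set which reads can be told apart and which arms share targets. They are those of RefSeq on GRCm38.p6, matched by name for all 4 arms, 5′ to 3′ with the seed (bases 2 to 8) in capitals.
miR-132-3p: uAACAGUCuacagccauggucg
miR-212-3p: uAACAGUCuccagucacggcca
miR-132-5p: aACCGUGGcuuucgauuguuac
miR-212-5p: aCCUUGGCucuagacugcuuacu
The 3p arms share the seed AACAGUC, are identical over their first 9 bases and match at 17 of 22 positions. The 5p arms have different seeds and match at 9 of 22 positions. These matches were counted base by base from the 5′ end without a shift, and shifted along each other the 5p arms match at more positions. Of the 347 listed miRNAs with a RefSeq sequence, none other than these 3p arms carried the seed AACAGUC, and none shared a seed with either 5p arm. The counting rule for mismatches was not given in the sources used here, so some exchange of reads between miR-132-3p and miR-212-3p cannot be told apart from their own levels.

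The hairpins show where each arm lies, with the mature arms in capitals.
Mir212: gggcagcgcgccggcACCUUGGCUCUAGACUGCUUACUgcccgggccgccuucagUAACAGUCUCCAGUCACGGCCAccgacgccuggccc
Mir132: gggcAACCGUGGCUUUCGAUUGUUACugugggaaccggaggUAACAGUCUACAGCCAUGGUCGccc
On GRCm38 (the submitters' processing notes name mm9, another build) Mir212 lies at chr11:75173388-75173478 and Mir132 at chr11:75173682-75173747, both on the plus strand and 203 bases apart. In the GENCODE vM21 annotation both are intronic in the noncoding transcript 1700016P03Rik (chr11:75172560-75177633, plus strand).

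The A30P libraries were shallow, which limits every value below. WT libraries held 724813 to 9762286 reads of listed miRNAs, and A30P libraries 21731 to 3500431. A30P replicates 1, 2, 4 and 7 held under 100000 reads, and the deepest A30P library was replicate 6. miR-148a-3p and miR-151-3p together took 0.842% to 2.51% of reads in WT libraries and 13.9% (replicate 6) to 80.1% in A30P libraries, which lowers the share left for every other miRNA. In A30P replicate 4 a single read equalled 56.4 normalized counts, so a listing at 0 there allows up to 169 (3 reads). All WT library columns carried the tag C and all A30P columns the tag D, and if the tag marks a batch, it and the genotype cannot be told apart. In bulk tissue, fewer cells of a type and less RNA per cell cannot be told apart either.

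miR-132-3p, the arm with the known role in dendrites, was low in most A30P libraries. In WT it ranged from 147.6 to 1391 normalized counts (median 712), from 183 to 11971 reads. In A30P it ranged from 0 to 311 (median 70.2). The A30P reads were 4, 1, 5, 0, 1785, 3 and 34 in replicates 1, 2, 3, 4, 6, 7 and 8, so replicate 6 held 1785 of the 1832 reads of the group. Replicates 1, 2, 3 and 8 lay below the lowest WT library, and replicates 6 and 7 lay within the WT range. Replicate 4 was listed at 0, which allows up to 169 normalized counts and so cannot be placed below the WT range on this scale. The value of replicate 7 rests on 3 reads. That of replicate 1 rests on 4 reads of 17.5 normalized counts each, so its place below the WT range is within counting error on this scale.

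miR-132-5p, the opposite arm of the same hairpin, differed less. It ranged from 97.5 to 753 normalized counts in WT, with a median of 449, and in A30P from 102 to 282, with a median of 201. The A30P reads were 10, 10, 90, 5, 1214, 2 and 103 in the same order. No A30P library lay below the lowest WT library, replicate 8. All were listed below the WT libraries other than replicates 1 and 8, which were at 297 to 753. For A30P replicates 1, 2, 4, 7 and 8 that place below 297 is within counting error on this scale. The value of A30P replicate 7, 102, rests on 2 reads, under its floor of 154 (3 reads), so it cannot be placed against 97.5. The A30P values were the narrowest of any arm in that group, with a coefficient of variation of 29.1%. Replicates 1, 2, 4 and 7 rest on 10, 10, 5 and 2 reads, so this spread is not beyond counting error and does not show a steady level.

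miR-212-3p, which has the seed of miR-132-3p, was the scarcest arm in both genotypes. It ranged from 2.51 to 85.6 normalized counts in WT (median 25.3), from 4 to 737 reads. In A30P it was listed at 0 in replicates 1, 2, 4 and 7 and had 2, 111 and 3 reads in replicates 3, 6 and 8, at 4.26, 19.3 and 7.72 normalized counts. In the 4 libraries without a read, 3 reads would equal 52.6 to 169 normalized counts, above the WT mean of 27.9, so a level near the WT mean could fall under that floor there. The highest WT value lay above the floors of replicates 1 and 2. By share of reads the floor of replicate 2 (32.3 RPM, reads per 1000000 listed reads) was just under the WT mean of 35.7.

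miR-212-5p, the opposite arm, was the steadiest member in WT and the only arm whose genotypes did not overlap. It ranged from 522 to 1050 normalized counts in WT, with a median of 712, and reached only 102 to 460 in A30P, with a median of 121. The A30P reads were 6, 6, 93, 2, 2640, 2 and 51, and the highest A30P value was again that of replicate 6. Across all listed miRNAs, 23.7% had every A30P library below every WT library and 4.04% had every one above.

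**Figure D1:**
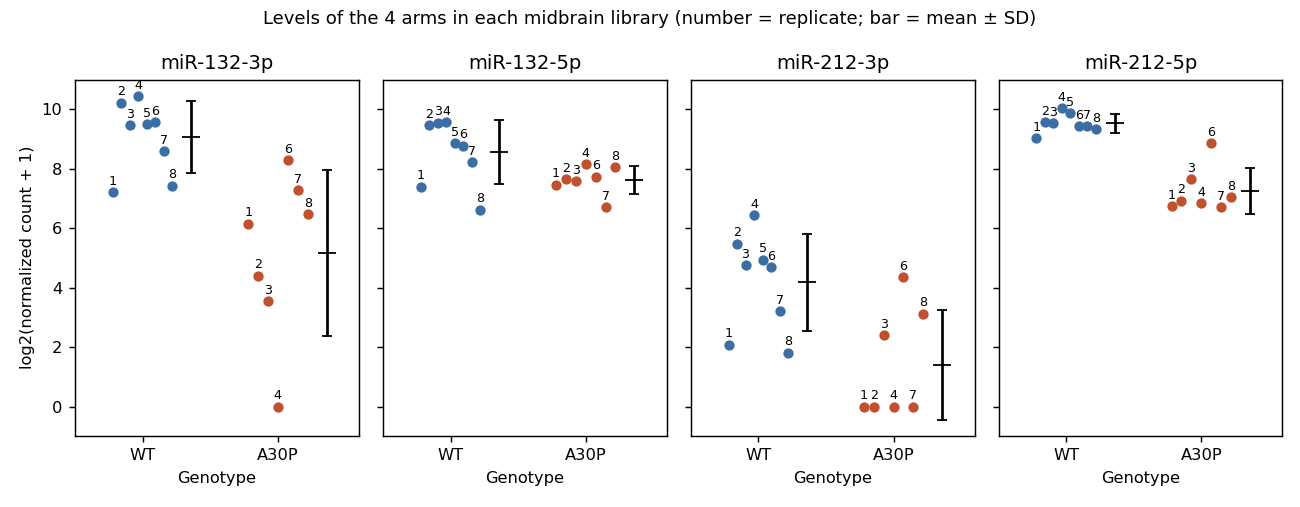
Level of each arm as log2(normalized count + 1) in each of the 8 WT (blue) and 7 A30P (red) libraries, with the replicate number at each point and the mean ± SD of the log2 values as a bar. miR-212-5p has all 7 A30P points below the WT points, miR-132-5p has none, and WT replicates 1 and 8 are the lowest WT points of all 4 arms.

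WT replicates 1 and 8 stood apart from the other WT libraries and were also the shallowest of them. miR-132-3p was at 147.6 and 171 normalized counts there against 380 to 1391 in the other 6, miR-132-5p at 167 and 97.5 against 297 to 753, and miR-212-3p at 3.23 and 2.51 against 8.21 to 85.6. miR-212-5p was at 522 and 643 against 685 to 1050, the smallest gap of the 4 arms. The coefficient of variation over WT was 65.6% for miR-132-3p, 56.8% for miR-132-5p, 97.9% for miR-212-3p and 22.3% for miR-212-5p.

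The order of the mean log2 levels in WT was miR-212-5p, miR-132-3p, miR-132-5p and miR-212-3p. The mature arms are 22 or 23 bases long, so length hardly enters a comparison between them, but how evenly the library kit captured each sequence was not tested. miR-212-5p was above miR-132-3p in 5 of 8 WT libraries and the neighbours did not differ beyond their spread (exact sign-flip test over libraries, two-sided, p = 0.234). miR-132-3p was above miR-132-5p in 6 of 8 (mean log2 difference 0.50 ± 0.42, SD, exact sign-flip p = 0.0313), and miR-132-5p was above miR-212-3p in 8 of 8 (4.38 ± 0.72, exact sign-flip p = 0.0078, the smallest possible). In A30P miR-132-5p came first and miR-132-3p after miR-212-5p. There miR-132-5p was above miR-212-5p in 4 of 7 libraries (exact sign-flip p = 0.313) and miR-212-5p above miR-132-3p in 6 of 7 (exact sign-flip p = 0.0781). miR-212-3p had the fewest reads in 14 of 15 libraries and tied with miR-132-3p at 0 in A30P replicate 4.

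In the comparison of genotypes by limma on log2(value + 1), adjusted by Benjamini-Hochberg over all 396 miRNAs, 3 of the 4 arms were lower in A30P. Over all miRNAs 71.0% passed as lower and 8.33% as higher, so a count of 3 in 4 is close to the background. miR-132-3p fell from 683 ± 448 (SD, n = 8) to 93.3 ± 110 (SD, n = 7) normalized counts, with a log2 fold change of -3.89 (SE 1.01, limma adjusted p = 0.0018). miR-212-5p fell from 752 ± 168 to 176 ± 129.4 (log2 fold change -2.28, SE 0.45, limma adjusted p = 0.00017). miR-212-3p was at 27.9 ± 27.3 in WT and 4.47 ± 7.20 in A30P (log2 fold change -2.76, SE 0.84, limma adjusted p = 0.0057), a value that depends on the pseudocount of 1 because 4 A30P libraries held no read. miR-132-5p did not pass, at 459 ± 260 and 204 ± 59.4 (log2 fold change -0.94, SE 0.54, limma adjusted p = 0.118).

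The median log2 fold change was -2.52 over the 4 arms and -2.57 over all miRNAs. Set against that median, miR-132-3p was lower by a further -1.32 and miR-212-3p by -0.19, while miR-212-5p stood 0.29 and miR-132-5p 1.64 above it. The median of all miRNAs moved by 0.74 with TMM scaling and by -0.35 when values were scaled to the total of listed reads, where all 4 arms passed as lower against 79.0% of miRNAs (5.56% higher). Under these scalings in limma miR-132-3p stayed below the median of all miRNAs, by -1.01 and -1.56, and miR-132-5p stayed above it, by 2.02 and 1.31. miR-212-5p changed side, at 0.68 above the median with TMM scaling and at -0.04 when scaled to the total. The offsets also moved with the pseudocount. With 0.1 in place of 1, miR-132-3p was at -0.05 from the median, miR-212-3p at -0.25, miR-212-5p at 2.05 and miR-132-5p at 3.40. With a pseudocount of 10 they were at -2.12, -0.13, -1.13 and 0.16.

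The calls depended on the scaling and on the test. In edgeR's quasi-likelihood test of the recovered reads, scaled by TMM, where 35.8% of 318 tested miRNAs were lower, miR-132-3p was the only arm to pass (log2 fold change -1.42, adjusted p = 0.033). By that test miR-212-5p had a log2 fold change of -0.90 (edgeR adjusted p = 0.0881), miR-212-3p of -0.04 (edgeR adjusted p = 0.958) and miR-132-5p of 0.24 (edgeR adjusted p = 0.643). With TMM scaling in limma, miR-132-3p (-2.85, limma adjusted p = 0.0164) and miR-212-3p (-1.94, limma adjusted p = 0.043) passed. There 218 of 396 miRNAs were lower and 45 higher. With the deposited size factors in edgeR, miR-212-3p did not pass (-1.59, edgeR adjusted p = 0.0667) and miR-132-5p passed as lower (-1.16, edgeR adjusted p = 0.0275). In that setting 196 of 318 miRNAs were lower and 43 higher, and miR-132-5p stood 0.85 above the median of all. In the authors' deposited table, where 135 of 396 miRNAs were lower and 39 higher, no arm passed. The log2 fold changes of the authors' deposited table were -0.49 for miR-132-3p, 0.10 for miR-132-5p, 0.92 for miR-212-3p and -0.81 for miR-212-5p, with adjusted p = 0.585, 0.920, 0.337 and 0.0566. Without the 4 A30P libraries under 100000 reads, miR-132-3p (log2 fold change -2.95, limma adjusted p = 0.0137) and miR-212-5p (-1.68, limma adjusted p = 0.0040) passed and miR-212-3p did not (-0.88, limma adjusted p = 0.413), where 52.3% of all miRNAs were lower and 7.83% higher. Without WT replicates 1 and 8 miR-132-5p passed as lower (log2 fold change -1.45, limma adjusted p = 0.0095). There 296 of 396 miRNAs were lower and 33 higher, and miR-132-5p stood 1.48 above the median of all.

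**Figure D2:**
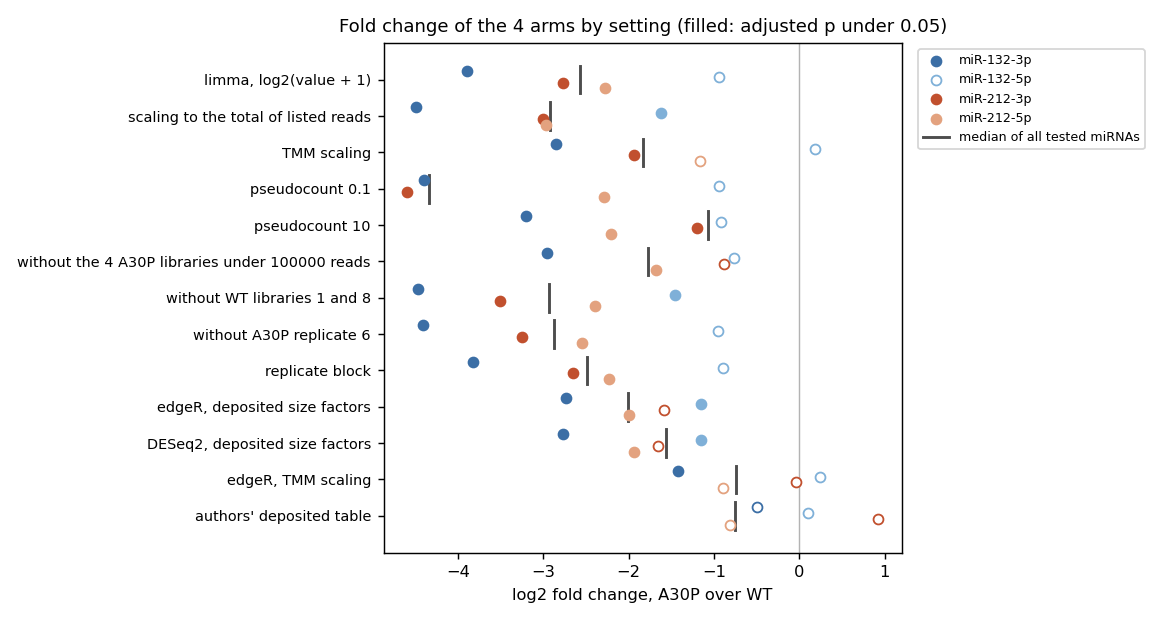
Log2 fold change of each arm (A30P over WT, x axis) under 13 settings of scaling, test and libraries (y axis), with filled points for adjusted p under 0.05 and a grey bar at the median of all miRNAs tested under that setting. miR-132-3p lies left of the grey bar in every limma, edgeR and DESeq2 setting drawn, and right of it in the authors' deposited table, while miR-132-5p lies right of the bar in all of them. With a pseudocount of 0.1 miR-132-3p is only -0.05 from the bar.

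The share of listed reads does not use the size factors. It is given as RPM. The 4 arms together took 1436 to 3951 RPM in WT (2653 ± 766, SD, n = 8) and 183 to 1643 in A30P (525.6 ± 506, SD, n = 7), 5.05-fold lower by the ratio of means (exact permutation test, two-sided, p = 0.000622). The WT minimum was replicate 1 and the A30P maximum replicate 6, whose exact 95% binomial interval was 1601 to 1686, so the genotypes overlapped through these libraries. The next highest A30P share was 535 RPM in replicate 3, from 190 reads. Without replicate 6 the A30P mean was 339 ± 126 RPM (SD, n = 6), 7.82-fold below WT. No molecular identifiers were counted, so intervals and floors cover counting error alone.

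By the same test for each miRNA, adjusted over all 396, all 4 arms were lower, against 71.2% of all miRNAs. miR-132-3p was at 909 ± 498 RPM in WT and 112 ± 180 in A30P (exact permutation test, adjusted p = 0.0021), and miR-212-5p at 1097 ± 222 and 208 ± 250 (adjusted p = 0.00093 by the same exact test). miR-132-5p was at 612 ± 273 and 199.7 ± 94.1 RPM (exact permutation test, adjusted p = 0.0041), and miR-212-3p at 35.7 ± 32.0 and 6.31 ± 11.6 (exact permutation test, adjusted p = 0.0196). Without A30P replicate 6 the ratio of means rose from 8.12-fold to 19.97-fold lower for miR-132-3p, from 5.66-fold to 17.2-fold for miR-212-3p and from 5.28-fold to 9.41-fold for miR-212-5p, and was 3.06-fold and 3.49-fold for miR-132-5p. In A30P replicate 4, where miR-132-3p had no read of 21731, up to 138.1 RPM is allowed, which is below the lowest WT share of 252.

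Much of the difference in shares moved with miR-148a-3p and miR-151-3p. When their reads were left out of the total, the 4 arms took 2685 ± 772 RPM in WT and 1226 ± 344 in A30P, 2.19-fold lower (exact permutation test, p = 0.000622). Against 55.6% of all miRNAs lower on that scale, miR-132-3p was still lower (919 ± 502 and 218 ± 222 RPM, exact permutation test, adjusted p = 0.0061), as was miR-212-5p (1111 ± 231 and 438 ± 214, exact permutation test, adjusted p = 0.0012). miR-132-5p was at 619 ± 275 and 560 ± 223 RPM and did not pass (exact permutation test, adjusted p = 0.710), nor did miR-212-3p (36.1 ± 32.4 and 9.86 ± 14.3, exact permutation test, adjusted p = 0.0653).

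Shares within a hairpin depend neither on the scaling nor on the total of other reads, but an exchange of reads between the 3p arms would change them. In WT, miR-132-3p made up 46.9% to 64.9% of miR-132 reads (58.4% ± 7.15, SD, n = 8), with replicates 1 and 3 below 50% and the other 6 above it. In A30P it made up 0% to 60% (26.8% ± 24.8, SD, n = 7). The mean difference was -31.7 percentage points (exact permutation test, two-sided, p = 0.0068, adjusted p = 0.0154 over 90 hairpins). Over those 90 hairpins 26.7% had a lower and 27.8% a higher 3p share in A30P, and the median absolute difference was 12.2 points. A larger absolute difference than that of miR-132 was found in 21.1% of hairpins.

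The A30P libraries did not share a single arm balance for miR-132. Replicate 6, with 2999 miR-132 reads, had a 3p share of 59.5% (exact 95% binomial interval 57.7% to 61.3%), within the WT range. Replicate 3, with 95 reads, had 5.26% (1.73% to 11.9%), and replicate 8, with 34 reads of the 3p arm and 103 of the 5p arm, had 24.8% (17.8% to 32.9%), both below every WT library by more than the counting error. In replicates 1, 2, 4 and 7 the hairpin had 14, 11, 5 and 5 reads, with 3p shares of 28.6%, 9.09%, 0% and 60%. The intervals of replicates 1, 4 and 7 reached into the WT range, and that of replicate 2 (0.230% to 41.3%) lay below it. With reads pooled over libraries, which gives replicate 6 most of the weight, the share was 61.0% in WT and 56.1% in A30P. Without the 4 libraries under 100000 reads the difference was -28.5 points but did not pass (exact permutation test, adjusted p = 0.0846).

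For miR-212 the 5p arm dominated in both genotypes. miR-212-3p made up 0.389% to 7.54% of miR-212 reads in WT (3.14% ± 2.47, SD, n = 8). In A30P the share was 4.03% of 2751 reads in replicate 6 (exact 95% binomial interval 3.33% to 4.84%), 2.11% of 95 reads in replicate 3 and 5.56% of 54 reads in replicate 8. The other 4 A30P libraries held 2 to 6 miR-212 reads and no 3p read, too few to show a share of this size. The mean of 1.67% ± 2.31 (SD, n = 7) did not differ from WT beyond the spread (exact permutation test, adjusted p = 0.343). miR-212 reads made up 45.6% ± 14.7 (SD, n = 8) of the reads of the 4 arms in WT, from 29.5% in replicate 2 to 70.6% in replicate 8, and 35.5% ± 9.50 (SD, n = 7) in A30P (exact permutation test, p = 0.137).

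By limma on the log2 ratio of 3p to 5p values over 93 hairpins, of which 28.0% passed as lower and 23.7% as higher in A30P, the ratio of miR-132 was lower by -2.95 (SE 1.00, limma adjusted p = 0.0178) and that of miR-212 did not pass (-0.48, SE 0.73, limma adjusted p = 0.584). With a pseudocount of 0.1 the ratio of miR-132 no longer passed (-3.46, limma adjusted p = 0.0534). With a pseudocount of 10 the log2 ratio of miR-212 was higher in A30P, by 1.01 (limma adjusted p = 0.0206).

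**Figure D3:**
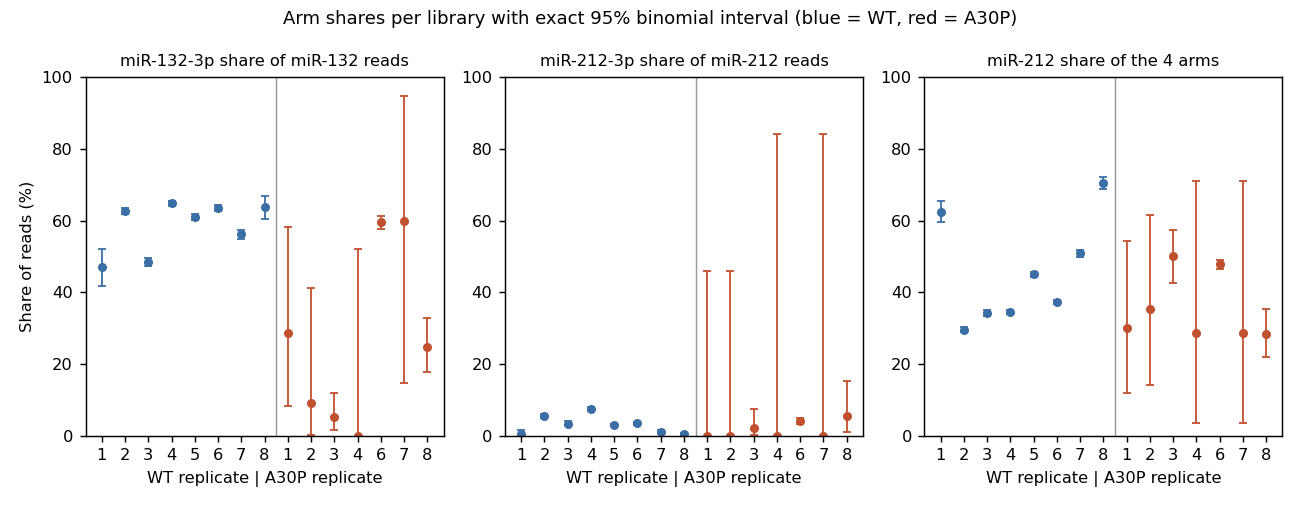
Share of reads in percent (y axis) for miR-132-3p within miR-132, miR-212-3p within miR-212 and miR-212 within the 4 arms, in each WT (blue) and A30P (red) replicate (x axis), with exact 95% binomial intervals that cover counting error. A30P replicates 1, 2, 3, 4 and 8 lie below the WT points in the first panel, replicates 2, 3 and 8 with their whole interval. Replicate 6 lies at 59.5% among the WT points, and the libraries with few reads have intervals that span much of the axis.

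Within WT, the arms that varied most between libraries varied together, as did many other miRNAs. The p-values are against no correlation, not against that background. Among miRNAs with reads in every WT library, miR-212-3p ranked 4 and miR-132-5p 76 by r with miR-132-3p. By r with miR-132-5p, miR-212-3p ranked 80. Over the 8 WT libraries miR-132-3p and miR-212-3p, the arms with the common seed, had a Pearson r of 0.98 on log2(value + 1) (exact permutation over pairings, adjusted p = 0.0013 over 6 arm pairs) and a Spearman coefficient of 0.90 (exact permutation, adjusted p = 0.0091). miR-132-3p and miR-132-5p had an r of 0.94 (exact permutation, adjusted p = 0.0033) and a Spearman coefficient of 0.81 (adjusted p = 0.0218, exact permutation). miR-132-5p and miR-212-3p had an r of 0.94 (exact permutation, adjusted p = 0.0013) and a Spearman coefficient of 0.93 (exact permutation, adjusted p = 0.0067). Part of each r rests on WT replicates 1 and 8, which were low for these arms. Without them, over 6 libraries, r was 0.98, 0.83 and 0.83 for the same pairs, and the first alone passed (exact permutation, adjusted p = 0.0333, with 0.0917 for each of the others).

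The co-variation of miR-212-5p with the other arms in WT differed between the scales. Many other miRNAs had a higher r on normalized counts: miR-212-5p ranked 185 with miR-132-3p and 209 with miR-132-5p. On normalized counts its r was 0.80 with miR-132-3p, 0.67 with miR-132-5p and 0.83 with miR-212-3p (exact permutation over the 8 WT libraries, adjusted p = 0.0205, 0.067 and 0.0146), with Spearman coefficients of 0.81, 0.86 and 0.93 (exact permutation, adjusted p = 0.0218, 0.0161 and 0.0067). Without WT replicates 1 and 8 these r were 0.59, 0.42 and 0.73 and none passed (exact permutation, adjusted p = 0.275, 0.422 and 0.15). On the log2 share of listed reads they were -0.03, -0.40 and -0.14 (exact permutation, adjusted p = 0.943, 0.490 and 0.894), whereas the 3 pairs among the other arms were at 0.89 to 0.96. WT replicate 8, low in the other arms, had the highest share of miR-212-5p in WT, 1546 RPM.

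**Figure D4:**
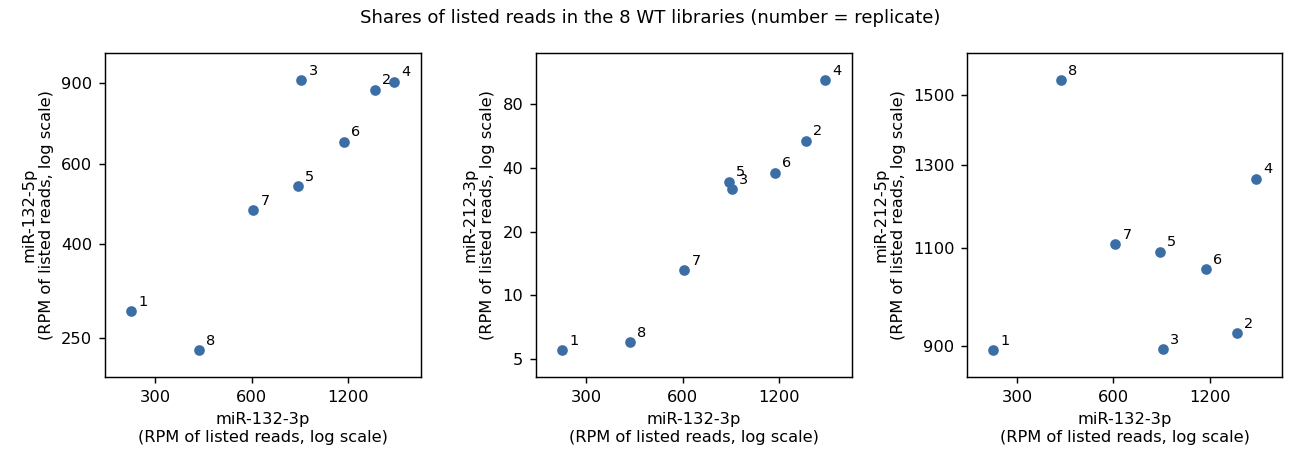
Share of listed reads, in RPM on log axes, of miR-132-5p, miR-212-3p and miR-212-5p (y axes) against miR-132-3p (x axes) in the 8 WT libraries, numbered by replicate. miR-132-5p and miR-212-3p rise with miR-132-3p, with replicates 1 and 8 at the low end, while miR-212-5p shows no such trend and replicate 8 is its highest point at 1546.

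In A30P, where miR-212-3p had too few reads to enter, the 3 remaining pairs had r of -0.49 (miR-132-3p with miR-132-5p), 0.37 (miR-132-3p with miR-212-5p) and 0.20 (miR-132-5p with miR-212-5p) over 7 libraries, with Spearman coefficients of -0.29, 0.11 and 0.46. None passed on this scale (exact permutation over pairings, adjusted p = 0.573 for each r). On the log2 share of listed reads the r were 0.21, 0.55 and 0.77, and miR-132-5p with miR-212-5p passed by Spearman coefficient (0.93, exact permutation, adjusted p = 0.0202) but not by r (exact permutation, adjusted p = 0.108). Without the libraries farthest from the median the r of normalized counts were -0.19, 0.63 and 0.09. Most A30P values rest on fewer than 100 reads.

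The miRNAs most like miR-132-3p across the 8 WT libraries, among 372 others with reads in every WT library, were miR-23a-3p (r = 0.996), miR-1839-3p (0.995), miR-30b-5p (0.987), miR-212-3p (0.985) and miR-181c-3p (0.985). miR-132-5p, from the same hairpin, ranked 76 and miR-212-5p 185 in that order. Those most like miR-132-5p were miR-487b-3p (r = 0.992), miR-421-3p (0.992), miR-361-5p (0.992), miR-191-5p (0.991) and miR-194-5p (0.990), with miR-132-3p at rank 86. All these values share the libraries and their scaling, including the low WT replicates 1 and 8, and are a description. Without those libraries the r of miR-23a-3p with miR-132-3p was 0.988 and that of miR-361-5p with miR-132-5p was 0.990. The first 5 of each list were lower in A30P by limma, with log2 fold changes from -2.76 for miR-212-3p to -5.66 for miR-30b-5p, where 71.0% of all miRNAs were lower.

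The cluster was set beside other miRNAs known from rodent neurons to respond to activity or to act in plasticity. Of the 31 listed arms of that list 6 were higher, 20 lower and 5 did not pass by limma, against 8.33% and 71.0% over all miRNAs, and the median log2 fold change was -2.79 against -2.57. In edgeR with TMM scaling 7 of 27 tested arms were higher and 8 lower, against 19.5% and 35.8%.

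On the lower side, miR-128-3p, a brain-enriched miRNA that dampens neuronal excitability in mice, fell from 45404 ± 11625 normalized counts in WT to 5405 ± 2575 (log2 fold change -3.14, limma adjusted p = 3.6e-08). miR-181a-5p, which targets a glutamate receptor subunit in rodent neurons, fell from 6686 ± 2125 to 540.1 ± 624.5 (log2 fold change -4.11, limma adjusted p = 6e-07), and miR-124-3p, the neuron-restricted miRNA, from 1405 ± 654 to 119 ± 111 (-4.47, limma adjusted p = 0.00028). By edgeR with TMM scaling these 3 fell too (log2 fold changes -2.08, -2.44 and -2.13). miR-410-3p (199.6 ± 132.3 to 3.18 ± 7.34) and miR-129-2-3p (354 ± 219.5 to 36.3 ± 83.1) fell as well, by limma and by edgeR with TMM scaling. They had reads in only 2 and 3 A30P libraries, so their A30P means rest mostly on listings at 0. miR-181a-1-3p, miR-124-5p and miR-128-2-5p fell by limma (log2 fold changes -4.86, -3.38 and -2.64), but missed the threshold in edgeR with TMM scaling (edgeR adjusted p = 0.118, 0.569 and 0.396). These arms had reads in 3, 3 and 4 A30P libraries.

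On the higher side, miR-381-3p (2486 ± 701 to 13614 ± 3187 normalized counts, log2 fold change 2.48, limma adjusted p = 5.2e-07), miR-379-5p (2411 ± 1162 to 10979 ± 1664, 2.40, limma adjusted p = 2e-05) and miR-485-5p (619 ± 553 to 4299 ± 2477, 2.80, limma adjusted p = 0.00038) rose. Without the 4 A30P libraries under 100000 reads miR-485-5p did not pass (1.72, limma adjusted p = 0.058), and on the lower side miR-124-5p and miR-128-2-5p did not (-1.37 and -1.22, limma adjusted p = 0.0611 and 0.144). miR-381-3p, miR-379-5p and miR-485-5p come from the large imprinted miRNA cluster that also encodes miR-410 and miR-134, so arms of that cluster passed in both directions. The opposite arms miR-379-3p and miR-485-3p fell by limma (log2 fold changes -5.20 and -2.79, limma adjusted p = 0.00012 and 7e-06). They had reads in 4 and 2 A30P libraries. In edgeR with TMM scaling miR-379-3p passed as lower (-2.18, edgeR adjusted p = 0.0015) and miR-485-3p did not (-1.54, edgeR adjusted p = 0.0617). miR-184-3p rose from 7.63 ± 1.80 to 364 ± 264 (log2 fold change 4.91, limma adjusted p = 7e-06). miR-129-5p, which represses a potassium channel in rat neurons, rose from 4749 ± 3030 to 8859 ± 1874 (1.06, limma adjusted p = 0.0061) but missed the threshold once scaled to total listed reads (0.37, limma adjusted p = 0.476). miR-134-5p, which limits dendritic spine size in rat neurons, did not pass (460.1 ± 58.5 and 299.9 ± 97.7, log2 fold change -0.67, 0.45 with TMM scaling, limma adjusted p = 0.128). The oligodendrocyte miRNA miR-219a-2-3p did not pass either (4932 ± 1530 and 3177 ± 1573, log2 fold change -0.73, 0.39 with TMM scaling, limma adjusted p = 0.0593). Scaled to total listed reads, both passed as lower (log2 fold changes -1.36 and -1.42, limma adjusted p = 0.0159 and 0.0046).

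Markers of brain tissue were present and, like most miRNAs, lower in A30P. The 5 brain markers (miR-124-3p, miR-9-5p, miR-9-3p, miR-128-3p and miR-137-3p) summed to 36381 to 176959 normalized counts in WT and to 5305 to 50901 in A30P. All 5 were lower by limma, against 71.0% of all miRNAs, and 3 of the 4 tested in edgeR with TMM scaling, against 35.8%, and miR-124-3p, miR-9-3p and miR-137-3p were listed at 0 in at least 1 A30P library. The choroid plexus marker miR-204-5p was at 994 to 3338 in WT and 51.2 to 734 in A30P, and the 2 listed oligodendrocyte markers summed to 2952 to 7943 and 1298 to 5282, with 1 of 2 lower. The 3 vascular markers summed to 2918 to 15953 and 4628 to 18850, with 1 higher and 2 lower by limma but 1 higher and none lower in edgeR with TMM scaling, the 2 erythroid markers to 312 to 1534 and 222 to 2459, with 1 higher, and none of the 5 microglia and leukocyte markers was listed. The liver marker miR-122-5p (9.72 to 44.7 in WT, 0 to 68.2 in A30P) and the muscle marker miR-1a-3p (122 to 2413 and 113 to 2838) did not pass by limma, though both passed as higher in edgeR with TMM scaling. Over all miRNAs 8.33% were higher by limma and 19.5% in edgeR with TMM scaling. The part of these markers in the difference of the 4 arms was not tested.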

How the data were processed

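Per the labels' protocols, RNA of frozen midbrain was extracted with Trizol and made into TruSeq libraries, but column names start with NEB per the file headers, so the kit is uncertain. The submitters' processing notes name mm9 and DESeq. The aligner, counter and annotation were not given in the sources used here. A single table was deposited. Its signal values per library are reads over a library's size factor, as deposited by the authors: 100% of them were whole multiples of a single step per library (within 1e-05), and whole reads were recovered for all 15 libraries. WT columns are named CT there and were matched by number. The deposited log2 fold changes and p-values appear only beside the words authors' deposited table, and the deposited group means, a score of unstated scale, were not used in any result.

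The main test was limma 3.58.1 (trend, robust) on log2(value + 1) for miRNAs whose mean reached 1 in either genotype, which all 396 passed, with Benjamini-Hochberg adjustment and a threshold of 0.05. That scale can understate changes of low miRNAs, while a listing at 0 in a shallow library can enlarge a fall. Shares used exact permutation over 6435 splits of 7 against 8 (two-sided, smallest p 0.000311) and exact (Clopper-Pearson) intervals in scipy 1.17.1. Arm shares were adjusted over the 90 of 93 hairpins with reads in enough libraries. edgeR 4.0.16 and DESeq2 1.42.0 on the recovered reads (R 4.3.3), other scalings, pseudocounts and filters, and left-out libraries were alternatives. Named list members had a mean of at least 10 and were the first 5 by p in each direction, plus arms of miR-124, miR-128, miR-134 and miR-219a. The members and lists were chosen with earlier results of these data known.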

Additional observations from a re-analysis of the deposited data

Results flagged for a closer look

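A30P replicate 6, the deepest A30P library with 3500431 reads, lay apart from the other 6 A30P libraries in several measures of the cluster, with a gap to the nearest library above Dixon's 95% critical share of the group's range (0.568 for 7 libraries). On normalized counts it was listed highest for miR-212-3p at 19.3 and for miR-212-5p at 460 (459.7). On RPM of listed reads it was listed highest for miR-132-3p at 509.9, for miR-212-3p at 31.7, for miR-212-5p at 754 and for the 4 arms together at 1643. For miR-212-3p, replicates 1, 2, 4 and 7 were listed at 0, with floors of 52.6 to 169 normalized counts and 32.3 to 138.1 RPM (3 reads). All these floors lie above replicate 6, so neither flag of miR-212-3p can show that it was highest or apart. Chance flags about 1 in 20 groups, 24 groups were tested, and these 6 flags come from a single library and overlapping measures. In that library miR-148a-3p and miR-151-3p together took 13.9% of reads, the lowest in A30P, and their part in its position was not tested. Without it the 4 arms were lower in A30P by -2313 RPM (exact permutation test, p = 0.000666), against -2127 with it.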

How the results depend on the processing

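miR-132-3p kept its direction under every alternative run for its log2 fold change, and its call under all but the authors' deposited table (-0.49). miR-212-5p kept its direction, but its call was lost with TMM scaling (-1.16), in edgeR with TMM scaling (-0.90) and in the authors' deposited table (-0.81). miR-212-3p lost its call without the 4 A30P libraries under 100000 reads (-0.88), in edgeR with TMM scaling (-0.036), in edgeR and DESeq2 with the deposited size factors (-1.59 and -1.65), and was higher in the authors' deposited table (0.92). miR-132-5p was called lower when scaled to total listed reads (-1.62), without WT libraries 1 and 8 (-1.45) and in edgeR and DESeq2 with the deposited size factors (-1.16 and -1.15), and turned positive with TMM scaling (0.19), in edgeR with TMM scaling (0.24) and in the authors' deposited table (0.10). In the settings just named as lower, miR-132-5p stood above the median of all miRNAs, by 1.31, 1.48, 0.85 and 0.41 in that order. Leaving out each library in turn gave log2 fold changes from -1.21 (without WT replicate 8, limma adjusted p = 0.0358) to -0.78 for miR-132-5p, and from -4.41 to -3.03 for miR-132-3p, -3.25 to -2.44 for miR-212-3p and -2.55 to -2.19 for miR-212-5p, without a change of call for these 3. Over all miRNAs, 62 were higher and 114 lower in edgeR with TMM scaling, against 33 and 281 by limma, and 135 were lower in the authors' deposited table. Of the activity list 8 were lower in edgeR with TMM scaling against 20 by limma.

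RPM differences of single arms lost their call without the 4 shallow A30P libraries for miR-132-3p (-709), miR-132-5p (-334) and miR-212-3p (-21.0), without the reads of miR-148a-3p and miR-151-3p for miR-132-5p (-58.4) and miR-212-3p (-26.2), and on the log2 scale for miR-212-3p (-1.05). The difference of the 4 arms together passed under all 20 alternatives run, most of which left out a single library. By share of listed reads 71.2% of all miRNAs were lower. The 3p share of miR-132 did not pass with at least 20 reads in the pair (-28.5 points) or without the 4 shallow A30P libraries (-28.5). Both settings leave the same 3 A30P libraries, so they are a single result. With pooled reads the 3p share of miR-132 differed by only -4.87 points. The difference was -37.2 to -27.2 points with each library left out, always past the threshold. The 3p share of miR-212 turned to 0.756 points with at least 10 or 20 reads in the pair and without the shallow libraries, settings that leave the same 3 A30P libraries. The miR-212 share of the 4 arms turned to 8.13 points with pooled reads. The log2 arm ratio of miR-132 lost its call with a pseudocount of 0.1 (-3.46), and that of miR-212 turned positive with a pseudocount of 10 (1.01) and without the shallow libraries (0.80). On shares, the r of miR-212-5p with miR-132-3p, miR-132-5p and miR-212-3p in WT turned to -0.030, -0.40 and -0.14, and that of miR-132-3p with miR-132-5p in A30P to 0.21. The causes were not tested. Depth limits miR-212-3p most, with no read in 4 A30P libraries, where at most 3.31 reads would be found at the mean WT share.

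The replicate numbers shared by the genotypes do not pair the samples: the deviations of same-numbered libraries correlated over 0.1 in 2 of 7 pairs (-0.13 to 0.31), and 1 library correlated best with its own number. With the replicate number as a block, over 7 pairs, the 3p share of miR-132 differed by -31.3 points and did not pass (exact sign flips, adjusted p = 0.0938), and limma called 28 miRNAs higher and 268 lower.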
